A study of Mus musculus with 6 samples.

Results

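The genes described here are the HOX genes and 13 other homeobox gene families (Irx, Meis, Pbx, Lhx, Tshz, Msx, Dlx, Emx, Pitx, Prrx, Cux, Zfhx and the sine oculis family), chosen by symbol alone. In the annotation 90 mouse genes carried such a symbol, and 67 of them had a row among the 20624 genes of the deposited table. These were 30 of 39 HOX genes and 37 of 51 other homeobox genes, and no symbol occurred more than once.

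RNA was sequenced from 6 cultures of mDCT15, a mouse cell line that the labels assign to the distal convoluted tubule, the nephron segment after the loop of Henle. Wild type cells (3 libraries) were set beside Pkd1-/- cells (3 libraries), in which *Pkd1*, the gene for polycystin 1, was disrupted by CRISPR-Cas9 editing. The genotype field of the labels reads "PKD1 knockdown" for the cultures whose titles read Pkd1-/-. Both groups were untreated, and the paper gives the same serum-containing culture medium for both. The paper does not state the medium of the sequenced cultures at harvest, and the number of edited clones was not given in the sources used here. The table holds 1 level per gene, the mean normalized count that the authors took over all 6 libraries, wild type and Pkd1-/- together. No value of a single library or of a single genotype was analysed here, so the levels given here have no replicate error, the depth behind them is unknown, and no genotype was compared with the other. *Pkd1* itself was at 3175 over both genotypes, which is no check of the labels. A gene was taken as detected at a mean normalized count of at least 10, and levels of different genes were compared after division by transcript length, as mean normalized count per kilobase (kb) of annotated exons. Counts not divided by length were set only against fixed limits, and a gene said to be highest or lowest by count need not be so per kb.

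Homeobox genes encode transcription factors that share the homeodomain, a fold of helices whose last helix reads the DNA major groove. The HOX genes stand in 4 clusters, numbered by paralog group from the 3′ end (group 1) to the 5′ end (group 13) of each cluster. In the embryo, low-numbered genes are in general switched on earlier and more anteriorly than high-numbered genes. Adult cells often keep a HOX pattern of the body region they came from. Kidney tissue arises from intermediate mesoderm, and genes of group 11 are together required for formation of the metanephric kidney. Pbx and Meis proteins bind DNA together with HOX proteins, while Lhx1, Six2, Emx2 and the Irx genes act in nephron or ureteric development.

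The highest HOX levels per kb were those of *Hoxb9* and *Hoxa10*. Their homeoboxes are shown with that of *Hoxc9*, the highest Hoxc gene, because they show how alike the genes are whose levels are set side by side. Each stretch encodes the 60 residues of the homeodomain, reads 5′ to 3′ on the coding strand, lies in 1 exon and comes from GRCm39. Capitals mark the codons of homeodomain residues 48 to 53, in the recognition helix. *Hoxb9* is at chr11:96165485-96165664 (plus strand), *Hoxc9* at chr15:102892362-102892541 (plus) and *Hoxa10* at chr6:52209534-52209713 (minus).
Hoxb9: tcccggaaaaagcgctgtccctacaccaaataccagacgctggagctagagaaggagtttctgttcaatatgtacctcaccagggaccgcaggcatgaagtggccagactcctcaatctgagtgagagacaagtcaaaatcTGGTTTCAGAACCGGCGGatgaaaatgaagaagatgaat
Hoxc9: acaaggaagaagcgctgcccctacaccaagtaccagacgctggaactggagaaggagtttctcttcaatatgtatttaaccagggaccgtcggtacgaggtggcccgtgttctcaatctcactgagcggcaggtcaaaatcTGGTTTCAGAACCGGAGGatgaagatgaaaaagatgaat
Hoxa10: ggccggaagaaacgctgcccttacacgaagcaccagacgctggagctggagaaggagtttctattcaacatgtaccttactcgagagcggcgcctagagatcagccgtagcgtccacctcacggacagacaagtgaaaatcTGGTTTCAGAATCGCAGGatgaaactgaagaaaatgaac

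The homeobox of *Hoxb9* was identical to that of *Hoxc9* at 83.9% of its 180 bases and to that of *Hoxa10* at 75.0%. Among the 30 HOX genes with a row, 23 pairs of the same paralog group had a median identity of 81.7%, and 412 pairs of different groups one of 61.7%. A sequenced mate of 42 bases could fall wholly inside a shared stretch in only 3 of these 435 pairs, all among *Hoxa6*, *Hoxa7* and *Hoxb4*, whose longest common run was 52 bases. Over whole transcripts, at most 1.62% of a HOX gene's 42-base words occurred elsewhere in the annotated transcripts (*Hoxc9*). Among the other homeobox genes the share was highest in *Dlx6*, at 5.92%, and *Prrx2*, at 4.64%. Only exact matches to annotated genes at other places were counted, so reads that map with mismatches were not tested.

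Of the homeobox genes with a row, a mean normalized count of at least 10 was reached by 57 of 67 (85.1%), at least 100 by 40 (59.7%) and at least 1000 by 7 (10.4%). Over all rows of the table these shares were 66.5%, 50.3% and 20.9%. The median mean normalized count was 177 for the 67 genes and 104.5 for all rows. The median per kb was 45.7 for the HOX genes, 42.8 for the other homeobox genes and 28.6 for all rows, and 39 of the 67 genes lay at or above the last of these. The higher median was not kept once members sharing any exon bases with another gene were left out. For the 27 genes without such overlap the median mean normalized count was 42.4, below that of all rows. The median of all rows was taken without this filter, and genes with little overlap, such as *Hoxb9* (1.55%), were left out too. Whether overlap raised the median of the 67 genes was therefore not tested. The exons of the 67 genes were also shorter, with a median of 3.13 kb beside 4.56 kb for all rows. By count *Cux1*, a cut-like homeobox gene linked to cell cycle progression, was highest at 5654, but per kb *Hoxb9* was highest at 1175, beside 233 for *Cux1*.

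**Figure D1:**
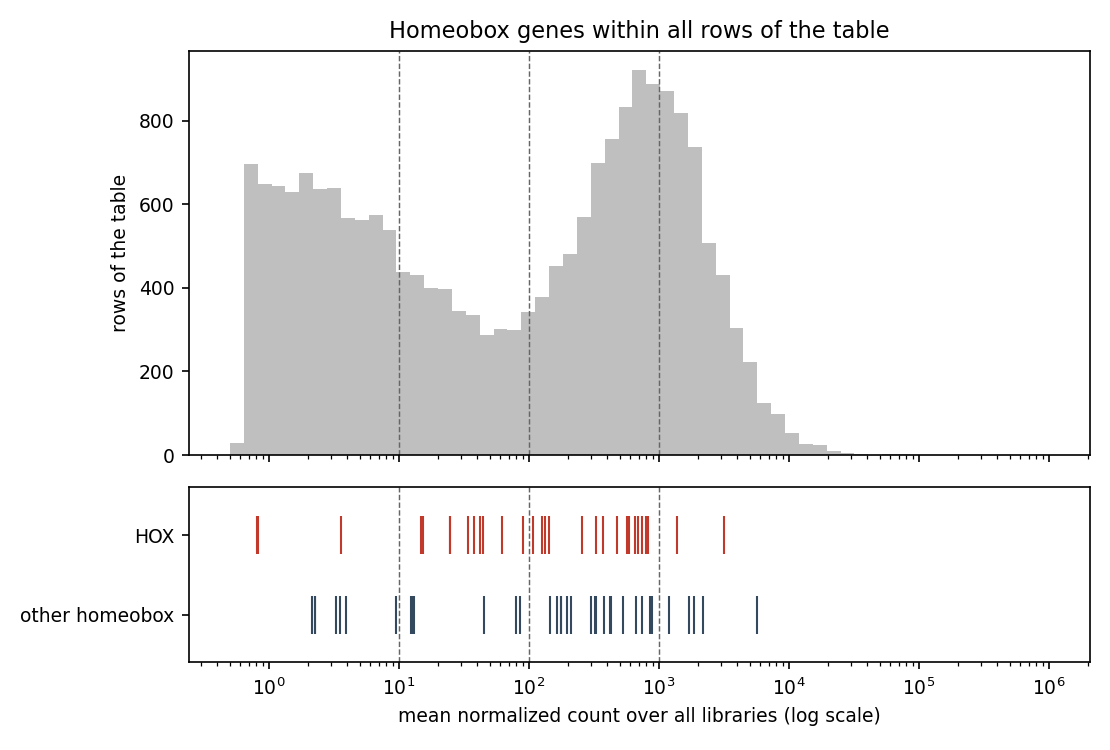
The upper panel counts all 20624 rows of the table by mean normalized count over all 6 libraries (log axis), and the lower panel has 1 tick for each of the 30 HOX and 37 other homeobox genes on the same axis, with dashed lines at 10, 100 and 1000. Most ticks of both kinds lie between 10 and 1000, and 7 lie above 1000.

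The 4 HOX clusters differed in level, from Hoxb, which held 68.2% of the summed HOX level per kb, through Hoxa (28.4%) and Hoxc (3.44%) to Hoxd (0.028%). In the Hoxa cluster (GRCm39 chr6:52132570-52237822) all 11 genes were detected, and 6 of them reached a mean normalized count of 100. In the Hoxb cluster (chr11:96085106-96259082) 9 of 10 genes had a row, and all 9 reached 100. In the Hoxc cluster (chr15:102829538-102945278) all 9 genes had a row, 7 were detected and 2 reached 100. In the Hoxd cluster (chr2:74498654-74595486) 1 of 9 genes had a row, *Hoxd8*, at 3.59, under the detection limit. *Hoxb1*, *Hoxd1*, *Hoxd3*, *Hoxd4* and *Hoxd9* to *Hoxd13* had no row in the table used here.

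**Figure D2:**
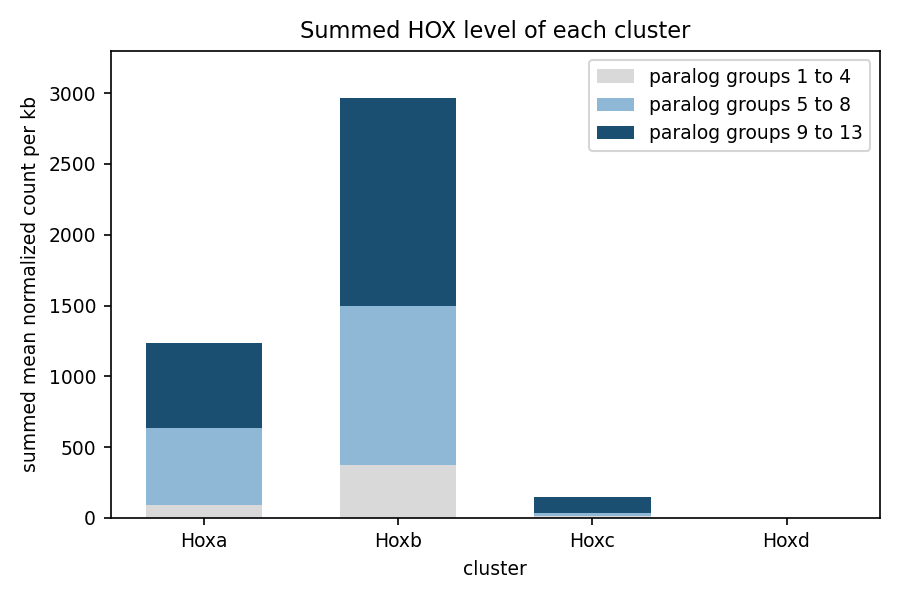
Bars give the sum of mean normalized counts per kb over the HOX genes of each cluster, split by paralog group (1 to 4, 5 to 8 and 9 to 13). The Hoxb bar is the tallest and the Hoxd bar, with 1 gene, is not visible at this scale.

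By position, groups 1 to 4 held 10.9% of the summed HOX level per kb, groups 5 to 8 held 39.0% and groups 9 to 13 held 50.1%. The medians per kb had another order, with 31.75 in groups 1 to 4, 144 in groups 5 to 8 and 43.4 in groups 9 to 13. Paralog group 9 alone, with *Hoxa9*, *Hoxb9* and *Hoxc9*, held 31.4%. The share of groups 9 to 13 rests to a large part on 1 gene: without *Hoxb9* it was 31.7%, and with group 9 moved out, groups 10 to 13 held 18.7%. In the Hoxa and Hoxb clusters groups 9 to 13 held 48.6% and 49.5% of the cluster's own sum, and in the low Hoxc cluster they held 75.9%.

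**Figure D3:**
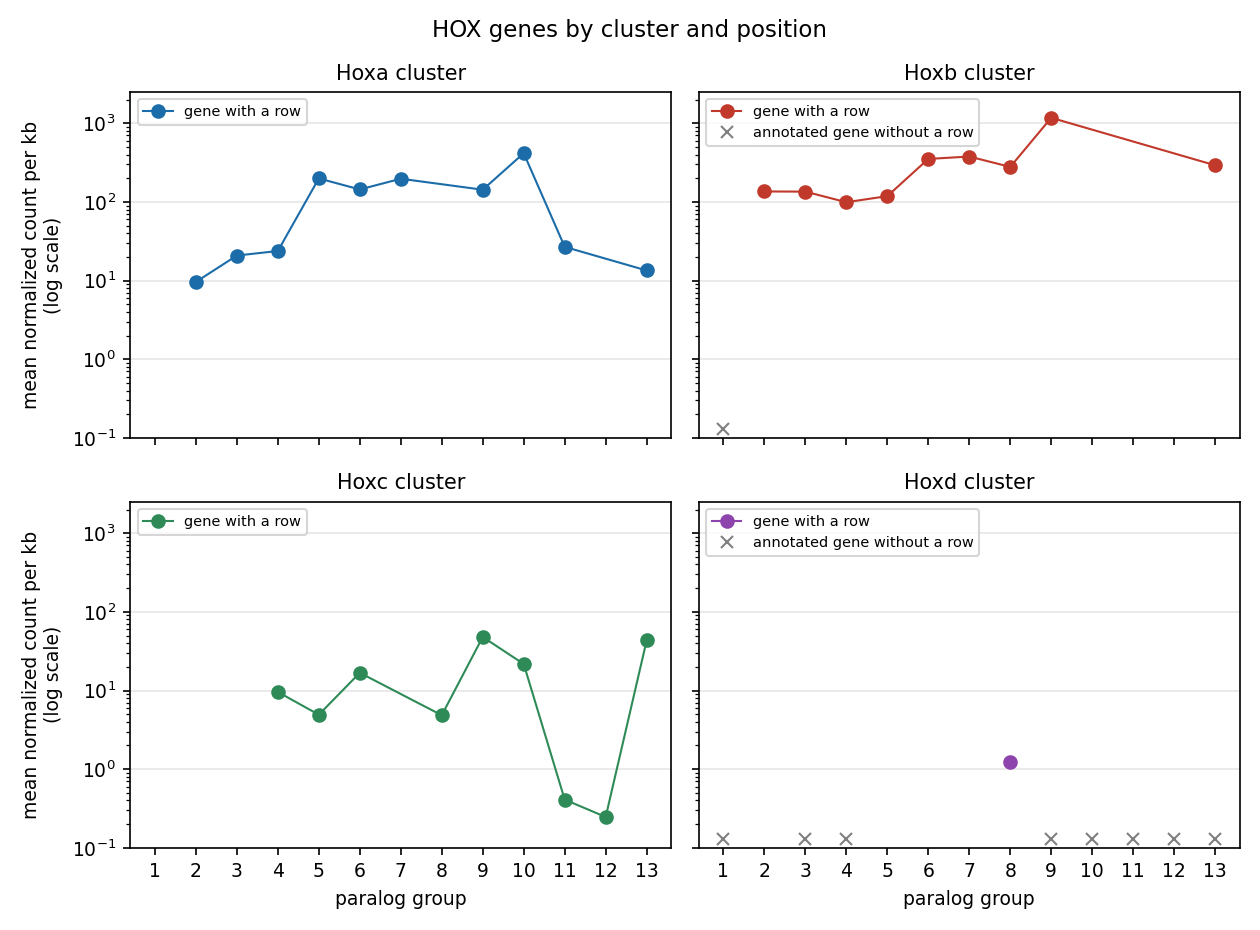
Each panel shows 1 cluster, with the paralog group on the x axis and the mean normalized count per kb on a log y axis, 1 point for each of 29 genes with a row. Grey crosses at the foot mark annotated genes without a row and carry no level. Hoxb genes lie from 99.2 to 1175 per kb, and Hoxa genes rise between groups 4 and 5 and drop between groups 10 and 11. Hoxc genes drop between groups 10 and 11, and the group 13 gene lies above those of groups 11 and 12.

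Within the Hoxb cluster, levels were of like size from *Hoxb2* to *Hoxb5* and higher from *Hoxb6* on. *Hoxb2*, a hindbrain patterning gene in the embryo, was at a mean normalized count of 475 (136 per kb), *Hoxb3* at 695 (135 per kb), *Hoxb4* at 255 (99.2 per kb) and *Hoxb5* at 330 (119 per kb). The level per kb was 2.97 times as high in *Hoxb6* (817, 352 per kb) as in *Hoxb5*. *Hoxb7*, whose promoter is widely used to direct transgenes to the ureteric bud and collecting duct, was at 584 (378 per kb), and *Hoxb8* at 740 (279 per kb). *Hoxb9* stood above all of them at 3181 (1175 per kb), 4.21 times *Hoxb8* per kb, and it made up 39.6% of the Hoxb sum. *Hoxb13*, the 5′ end of the cluster and a gene best known from the prostate and hindgut, lay 73.9 kb beyond *Hoxb9* and was at 656 (293 per kb).

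In the Hoxa cluster, the genes of groups 2 to 4 lay low, those of groups 5 to 10 high, and those of groups 11 and 13 low. *Hoxa2* was at a mean normalized count of 24.8 (9.62 per kb), *Hoxa3* at 144 (20.8 per kb) and *Hoxa4* at 37.9 (23.8 per kb). The level per kb was 8.37 times as high in *Hoxa5* (374, 199 per kb) as in its neighbour *Hoxa4*, 10 kb away. *Hoxa6* was at 126 (144 per kb), *Hoxa7* at 569 (197 per kb) and *Hoxa9* at 798 (143 per kb), so that groups 5 to 9 spanned less than 1.5-fold per kb. *Hoxa10*, a gene required for uterine and posterior axial development, was highest at 1376 (417 per kb). The next gene, *Hoxa11*, lies 1.24 kb from the 5′ end of *Hoxa10* and was 15.5 times lower per kb, at 62.2 (26.9 per kb), and *Hoxa13*, a limb and genital tubercle gene, was at 33.7 (13.45 per kb).

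The Hoxc genes were low, with 2 at the 5′ side, *Hoxc9* and *Hoxc13*, higher than the rest. *Hoxc4*, *Hoxc5*, *Hoxc6* and *Hoxc8* were at mean normalized counts of 14.6 to 42.4 (4.85 to 16.8 per kb). *Hoxc9* was at 133 (47.9 per kb), 9.89 times *Hoxc8* per kb, and *Hoxc10* at 44.5 (21.7 per kb). *Hoxc11* and *Hoxc12* were far under the detection limit at 0.829 and 0.808, the lowest 2 of the 67 genes by count. *Hoxc13*, a gene of hair and nail formation, was at 107 (43.4 per kb), although it stands 7.94 kb from *Hoxc12*. Some exon bases of *Hoxc5* (5.37%) and *Hoxc10* (8.11%) are annotated to both genes, on the same strand.

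Of the group 11 genes, which are required together for the metanephric kidney, *Hoxa11* was detected at 62.2, *Hoxc11* was at 0.829 and *Hoxd11* had no row. Group 11 held 0.626% of the summed HOX level per kb, beside 10.1% for group 10 and 8.03% for group 13.

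Many HOX genes share exon bases with an antisense transcript. The library kit keeps strand, in the reverse orientation, but the authors' counting was given as run at default settings, and the default of that counter assumes the forward orientation. Under that setting the row of an antisense gene would hold reads of its sense partner and the reverse. The row of a gene without such a partner would hold only reads antisense to it. Whether reads were counted so was not stated, and it was not tested here. Protein-coding rows held 89.6% of the summed mean normalized count. Per kb, *Hoxb3os* and *Hoxa11os* were at 11.8 and 2.90, below *Hoxb3* (135) and *Hoxa11* (26.9), with which they share exon bases. Values of overlapped HOX genes and of their antisense partners are uncertain for this reason. Opposite-strand overlap took 51.5% of the exon bases of *Hoxb3*, 43.6% of *Hoxa11*, 30.8% of *Hoxb6*, 29.7% of *Hoxb2* and 19.0% of *Hoxa10*, and 1.55% of *Hoxb9*. No other annotated gene overlapped exons of *Hoxb4*, *Hoxb7*, *Hoxb8* and *Hoxb13*, which were at mean normalized counts of 255 to 740. Leaving out the HOX genes with over 10% of their exon bases shared left 18 genes, among which Hoxb held 82.5%, Hoxa 13.95% and Hoxd 0% of the sum, since *Hoxa10* and *Hoxd8* were among those left out.

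Antisense and host genes inside the clusters were detected in Hoxb and Hoxa, the clusters with the higher HOX levels. Inside Hoxb, 4 genes other than HOX genes reached 10. These were *Gm53*, a long noncoding RNA gene between *Hoxb9* and *Hoxb13*, at 921 (135 per kb), *Hoxb5os* at 129, *Hoxb3os* at 71.2 and *Mir196a-1* at 66.1. Inside Hoxa, 6 reached 10, all at low levels: *5730596B20Rik* at 19.6, *Hoxaas3* at 16.8, *Hoxaas2* at 12.7, *Gm15050* at 12.3, *Hotairm1* at 11.1 and *Hoxa11os* at 11. Inside Hoxc and Hoxd none did, and *Hotair*, an antisense RNA of the Hoxc cluster, was at 0.657.

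The cluster miRNA genes are shown by their mature sequences because *Mir196a-1* was among the detected genes of the Hoxb cluster. Their sequences come from RefSeq (GRCm38.p6), with the seed, bases 2 to 8, in capitals. The count belongs to the hairpin gene or its primary transcript, which lies inside *Gm53* on the same strand, and is no measure of a mature miRNA. *Mir10a* was at 5.67, and *Mir196b* and *Mir10b* had no row. *Mir196b* shares exon bases with *Hoxa9* on the same strand, so reads there could not be told apart and its missing row is no measure of its level.
miR-196a-5p: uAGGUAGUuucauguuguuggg
miR-196b-5p: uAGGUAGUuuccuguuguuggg
miR-10a-5p: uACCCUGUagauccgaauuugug
miR-10b-5p: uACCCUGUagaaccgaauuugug
Both miR-196 forms share 1 seed and both miR-10 forms another. *Hoxb8* is a textbook target of miR-196, and the stretch after its stop codon holds a site complementary to miR-196a-5p at 21 of 22 bases (GRCm39 chr11:96175714-96175735, plus strand), with the bases opposite the seed in capitals. The base that does not match is a G opposite a U of the seed (a G:U pair).
Hoxb8 site: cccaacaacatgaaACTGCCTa
*Hoxb8* was at 740 (279 per kb), between *Hoxb7* and *Hoxb9* in position and below both in level per kb. Whether the miRNA bears on that level was not tested.

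Within 200 kb of each of the 4 clusters, protein-coding genes were detected. Beside Hoxd, *Lnpk* was at a mean normalized count of 489 and *Mtx2* at 625, and both lie within 100 kb of a cluster whose only gene with a row was at 3.59. Outside Hoxc, at 116 to 199 kb, *Cbx5*, the gene for heterochromatin protein 1 alpha, was at 16030, *Calcoco1* at 1438 and *Smug1* at 489. Outside Hoxb the nearer genes were low, with *Ttll6* at 23.5 (28.1 kb away), *Calcoco2* at 0.916 (82.3 kb) and *Skap1* at 45.2 (95.9 kb), and farther ones were high, with *Ube2z* at 3409 (129 kb) and *Igf2bp1* at 1535 (188 kb). Outside Hoxa, *Skap2* was at 886 (143 kb away) and *Hibadh* at 615 (193 kb).

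Of the 37 other homeobox genes with a row, 30 were detected, 23 reached 100 and 5 reached 1000. The families differed in how evenly their members were present. All 4 Irx genes with a row reached 100, as did the 2 Meis and the 2 Tshz genes with a row. Cux and Prrx had 1 detected gene each among 2 with a row, and the only Emx gene with a row was detected. *Emx1*, *Irx4*, *Irx6*, *Lhx3*, *Lhx5*, *Lhx8*, *Meis1*, *Msx1*, *Msx2*, *Msx3*, *Pitx3*, *Six3*, *Six6* and *Tshz3* had no row in the table used here.

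**Figure D4:**
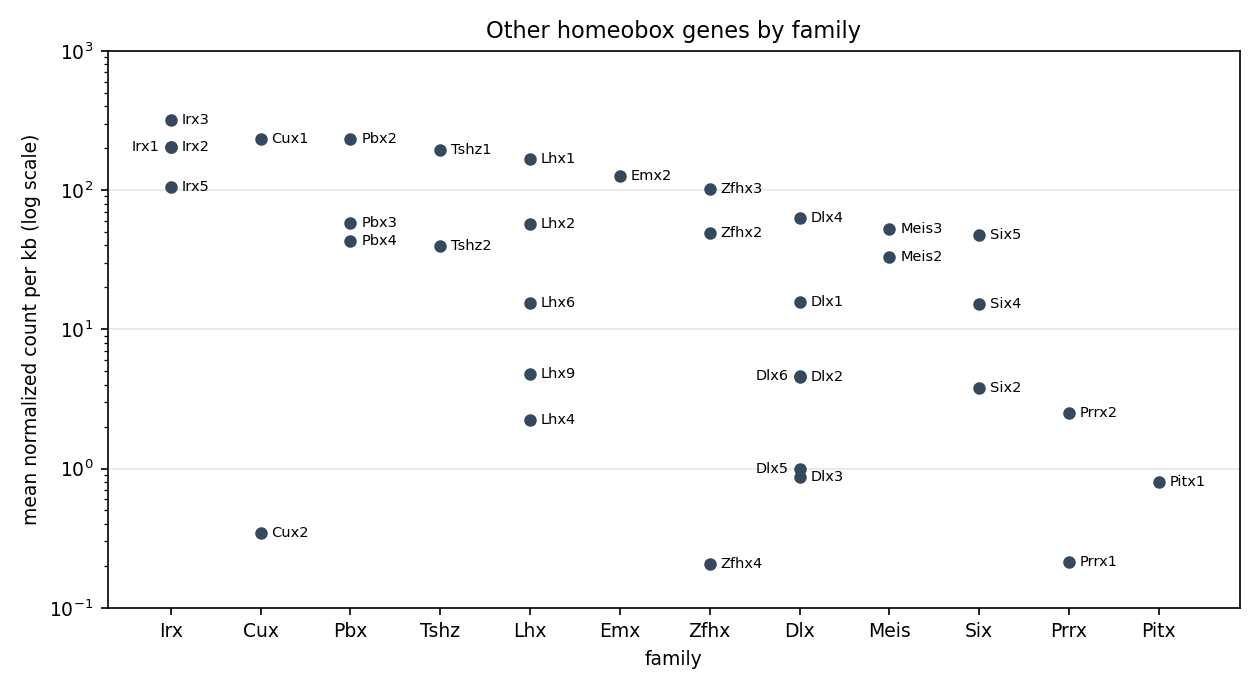
Points give the mean normalized count per kb (log axis) of 34 of the 37 other homeobox genes with a row, in columns by family ordered by their highest gene. Pitx, Cux, Zfhx, Dlx and Prrx each hold a gene below 1 per kb, and the 4 Irx genes all lie above 100 per kb.

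Among the genes whose proteins bind DNA with HOX proteins, *Pbx2* was at a mean normalized count of 856 (232 per kb), *Pbx3* at 420 (58.4 per kb) and *Pbx4* at 144 (42.8 per kb). *Meis2* was at 428 (33.0 per kb) and *Meis3* at 177 (52.4 per kb). The order by count and the order per kb thus differed for the Meis pair. All 5 genes of a list of further cofactors and antagonists were detected, from *Pknox2* at 78.2 to *Pknox1* at 943.

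The Irx genes pattern the nephron and are arranged in clusters of their own. *Irx1* (532) and *Irx2* (670), neighbours on chromosome 13, had nearly equal levels of 203 and 202 per kb. *Irx3* (875) and *Irx5* (329), neighbours on chromosome 8, stood at 317 and 105.1 per kb, a ratio of 3.01.

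Of the LIM homeobox genes, *Lhx1*, which is needed for the nephric duct and the renal vesicle, was highest at 737 (168 per kb), and 37.9% of its exon bases lie opposite *Lhx1os*. *Lhx2* was at 303 (57.3 per kb), and *Lhx6*, *Lhx9* and *Lhx4* ranged from 13 to 79.5. *Emx2*, a urogenital regulator, was at 376 (125 per kb).

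Of the sine oculis genes, which act with Eya proteins, 3 reached 100, *Six5* at 198 (47.1 per kb) and *Six4* at 165 (15.2 per kb) among them. *Six2*, the marker of nephron progenitors, was at 9.42, just under the detection limit, whereas *Dlx6*, at 12.5, was just above it.

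*Pitx1*, a hindlimb gene, was at 2.13. *Cux1* (5654) was at 233 per kb over 24.2 kb of exons, while *Cux2* was at 3.91. *Zfhx3* was at 2179 (102 per kb), *Zfhx2* at 891 (48.9 per kb) and *Zfhx4* at 3.27. *Tshz1* was at 1195 (194 per kb) and *Tshz2* at 323 (39.9 per kb).

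The Dlx genes, known from craniofacial and limb development, sit as linked pairs, and the members of a pair differed in level. *Dlx4* was at 210 (62.7 per kb) and its neighbour *Dlx3* at 2.27, under the limit. *Dlx1* (84.8) was 3.48 times *Dlx2* (12.9) per kb, but 60.2% of the exon bases of *Dlx1* lie opposite an antisense gene. *Dlx5*, the neighbour of *Dlx6* (12.5), was at 2.27. The mesenchymal genes *Prrx1* and *Prrx2* were at 3.52 and 12.8.

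All 22 listed Polycomb genes, whose products keep HOX clusters silent, reached a mean normalized count of 100, with a median of 950 and *Rbbp4* highest by count at 9256. All 11 listed Trithorax group genes, which maintain HOX activity, reached 100, with a median of 1588 and *Psip1* highest by count at 4704 (384 per kb, below *Men1* at 535 per kb). Of 16 further regulators, 12 had a row and 8 were detected, *Ctcf* highest by count at 2855. Retinoic acid is the signal that opens HOX clusters from the 3′ end. Of the genes that make it, *Aldh1a2* was at 618, *Aldh1a1* at 135 and *Aldh1a3* at 7.77. The genes that break it down, *Cyp26a1*, *Cyp26b1* and *Cyp26c1*, were at 1.83 to 2.60. The receptor genes *Rara* (751) and *Rarg* (918) were high and *Rarb* was at 27.7, and the *Cdx1*, *Cdx2*, *Cdx4* and *Rxrg* genes had no row.

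**Figure D5:**
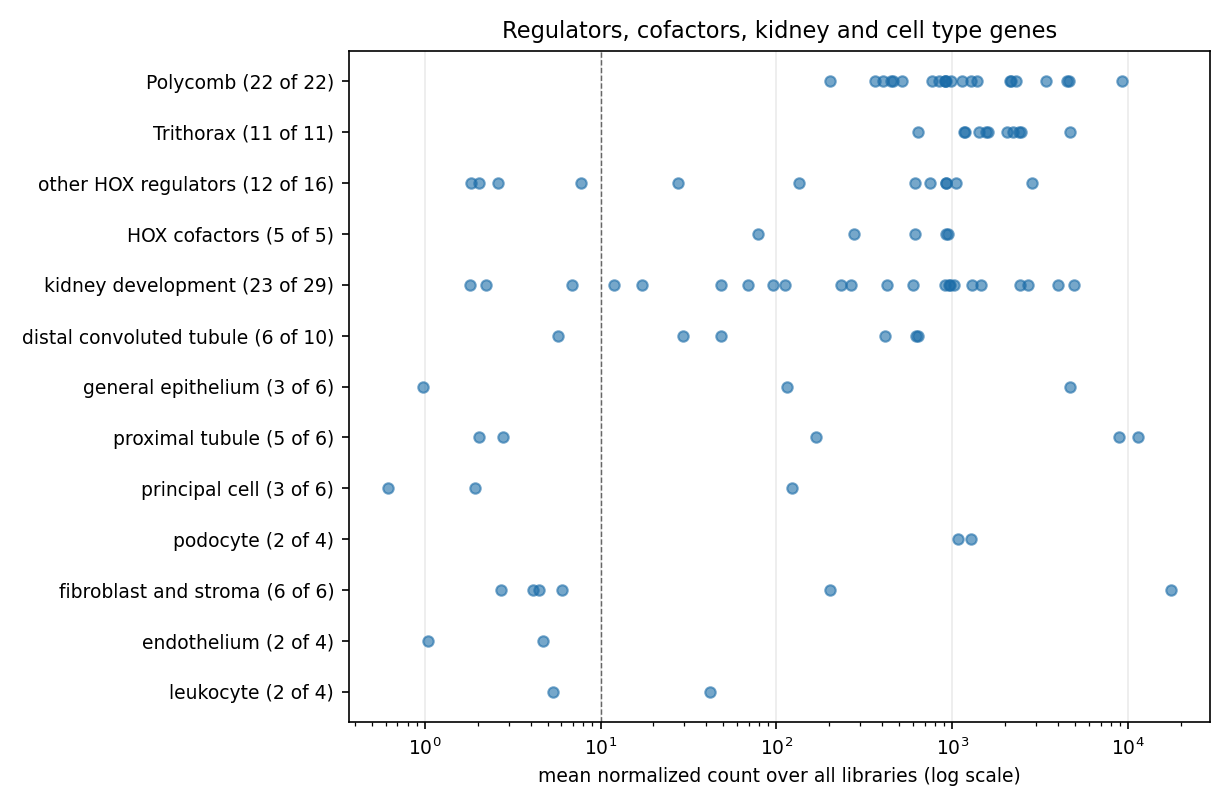
Each point is 1 gene of a list of HOX regulators, cofactors, kidney developmental regulators or cell type markers, at its mean normalized count over all 6 libraries (log axis), with the number of genes with a row beside each list and a dashed line at 10. All Polycomb and Trithorax genes lie above 100, and 8 of the 12 other HOX regulators with a row lie to the right of the dashed line.

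Other kidney developmental regulators gave a wide range. Of 29 listed genes, 23 had a row, 20 were detected and 15 reached 100. *Pax8*, a nephric lineage gene, was highest by count at 4905, with *Tfcp2l1* at 4007 and *Pax2* at 2428. *Wt1* (2.22), *Hnf4a* (6.92) and *Grhl2* (1.82) were under the limit, and *Ret*, *Wnt9b*, *Sall4*, *Eya2* and *Tfap2b* had no row. *Gata3*, a gene of the ureteric lineage, was at 68.8.

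The label of the cell type was checked against markers. Of 10 distal convoluted tubule markers 6 had a row and 5 were detected, with *Cnnm2* at 643, *Stk39* at 621, *Wnk4* at 413, *Egf* at 48.3 and *Trpm6* at 29.6, while *Klhl3* was at 5.70. The defining markers *Slc12a3*, the thiazide-sensitive cotransporter, and *Pvalb* had no row, nor had *Calb1* and *Fxyd2*. Of 6 general epithelial markers, *Cdh16* was at 4680, *Epcam* at 115 and *Krt8* at 0.98, and *Cdh1*, *Krt18* and *Krt19* had no row. The proximal tubule markers *Aqp1* (11355), *Lrp2* (8826) and *Cubn* (169) were detected and *Slc34a1* (2.04) and *Slc5a2* (2.77) were not. Of the stromal markers, *Vim* was at 17450 and *Col1a1* at 201, and the other 4 were under 10. None of 4 endothelial markers reached 10, none of the thick ascending limb or intercalated cell markers had a row, and of the leukocyte markers *Cd68* was at 41.9 and *Ptprc* at 5.36. The podocyte markers *Podxl* and *Synpo* were at 1270 and 1084 with no row for *Nphs1*, and of the principal cell markers *Hsd11b2* was at 122, *Aqp3* at 1.95 and *Scnn1g* at 0.618. The HOX and homeobox levels above are therefore those of the mDCT15 line, whose table has no row for the marker that defines its segment.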

How the data were processed

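RNA was depleted of ribosomal RNA, prepared with a KAPA RNA HyperPrep kit and sequenced in pairs of 42 bases. The authors trimmed reads with Trim Galore 0.4.5, mapped them with STAR 2.7.5a to GRCm39 (Ensembl 105), counted them with HTSeq 0.11.0 at default settings and normalized the counts with DESeq2 1.22.0, per the methods and the submitters' processing notes. The deposited signal used here is the authors' mean normalized count over all 6 libraries, which is not corrected for length. The other 5 columns hold the authors' comparison of the genotypes (log2 fold change, its error, statistic and p-values) and were not used, so no test was made. The deposited table has no columns of single samples, so depth per sample and replicate spread are unknown. The paper gives a cutoff of at least 5 counts for each gene in each sample, but the lowest mean normalized count was 0.618. How rows were left out is therefore not known, and a missing row is no measure of a gene's level.

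Rows were matched by gene ID to GENCODE M39 (Ensembl 116, GRCm39), which matched 97.6% of rows and all 67 genes. Levels were divided by the union of exons. Scripts (Python 3.11.15, pandas 2.3.3, numpy 2.4.6) were tested on simulated data. Members and lists were chosen with earlier results of these data known. Some genes and sequences are not reported here. Otherwise the text names every member at a mean normalized count of at least 100, members next to the limit of 10, genes inside the clusters at 10 or more, and the highest gene by count of the regulator and kidney lists; some others were chosen after their values were seen.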

Additional observations from a re-analysis of the deposited data

How the results depend on the processing

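With no values per library, leaving out a replicate could not be run and a change could not be set against replicate spread, so a value was taken as moved when it differed by more than 1.5 times. No paired analysis was possible because the columns carry no replicate. Of 35 alternatives over 8 results, 29 stayed within that bound. At a limit of 100, 17 HOX genes counted as detected, beside 27 at the limit of 10. The share of groups 9 to 13 was 31.7% without *Hoxb9* and 18.7% for groups 10 to 13, beside 50.1%. In an alternative chosen after seeing the data, without HOX genes that share over 10% of their exon bases, Hoxa held 13.95% and Hoxd 0%. The median mean normalized count of the members was 42.4 without the 40 overlapped genes, beside 177. This turns its order against the 104.5 of all rows, from which overlapped genes were not left out. The order of the 4 clusters was Hoxb, Hoxa, Hoxc, Hoxd in every alternative run.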
